A study of Homo sapiens with 12 samples.

Results

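The genes described here are 10 of the 17085 in the count table, chosen by symbol as the MiT/TFE transcription factors and a set of their known targets. They were the factors TFEB, TFE3 and MITF, the folliculin complex genes FLCN, FNIP1 and FNIP2, the Rag GTPase genes RRAGC and RRAGD, and the further targets GPNMB and PPARGC1A. A filter on low counts kept 12841 genes for testing, among them 9 of these 10, and PPARGC1A did not pass it. MITF rose with either drug alone and fell when both were given together. FLCN, FNIP1, RRAGC and RRAGD were higher with both drugs than with DMSO or with either drug alone, whereas TFEB and TFE3 were lower with both than with DMSO.

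RNA sequencing was performed on 786-O, an established human renal cancer cell line, labelled wild type, after 24 h with vehicle (DMSO), everolimus, SGI-1027 or both. Everolimus is a rapamycin analogue that inhibits mTORC1, and SGI-1027 is an inhibitor of DNA methyltransferases. SGI-1027 was given at 1.5 µM alone and in the combination, and everolimus at 5 µM in the combination. For everolimus alone the sample labels and the study's methods gave 5 µM and the treatment protocol gave 10 µM, so each comparison of the combination with everolimus, and each interaction value, holds at equal everolimus dose only if the sample labels are right. Each of the 4 groups had 3 libraries of one cell line, not stated to come from separate cultures, so p-values measure the spread between these libraries, which may be technical. Total counts per library ran from 37046231 to 41516976.

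The MiT/TFE factors are basic helix-loop-helix leucine zipper proteins that switch on genes of lysosomes and autophagy through short E-box elements. When amino acids are plentiful, mTORC1 phosphorylates them at the lysosome and they stay in the cytoplasm, and when this phosphorylation is lost they enter the nucleus. Folliculin with its FNIP partners is a GTPase-activating complex for RagC and RagD, the GTPases that bring the factors to mTORC1, and several of these genes are themselves targets of the factors, which closes a feedback loop. The data here are mRNA levels and hold no measure of phosphorylation or location of a protein. In RNA from a whole culture, fewer cells expressing a gene and less RNA per cell cannot be told apart. Within the treatment time used here, the study reported membrane damage, measured by enzyme release, with both drugs together but not with either alone. The part of cell death in the values below was not tested.

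The 786-O markers were present in each library, with a summed level of 8625 to 9050 normalized CPM (counts scaled to library size by the TMM method) with DMSO, 9431 to 9793 with everolimus, 9883 to 10520 with SGI-1027 and 9986 to 10182 with both drugs over 10 of 10 markers. VIM, vimentin of the cytoskeleton, made up most of that sum, at a mean of 5954 CPM with DMSO, 7130 with everolimus, 7117 with SGI-1027 and 7293 with both drugs. Of the 10 markers 1 was higher and 5 lower with everolimus, 4 and 2 with SGI-1027 and 3 and 5 with both drugs. Of all tested genes 27.2% were higher and 29.2% lower with everolimus. With SGI-1027 these shares were 32% and 30.6%, and with both drugs 32.8% and 33.4%. EPAS1, VEGFA and VIM were the 3 higher with both drugs (log2 fold changes of 0.77, 0.54 and 0.29). KRT8, CP, NNMT, PAX2 and CA9 were the 5 lower with both drugs (log2 fold changes of -0.39, -0.84, -0.29, -0.28 and -1.81). The part of these markers in the results was not tested. PAX8, a renal lineage factor, had 14221 to 17259 counts with DMSO and KRT8 had 45554 to 51013, whereas CA9 had 6 to 32. With both drugs CA9 had 2 to 7 counts, so its fold change rests on few counts. Of 10 markers of blood, endothelial, pigment and liver cells 7 were in the table, and their summed level was 0.524 to 0.832 CPM with DMSO, 0.993 to 1.002 with everolimus, 0.872 to 1.30 with SGI-1027 and 0.828 to 1.31 with both drugs. PMEL, a pigment cell gene, made up most of that sum, at a mean of 0.43 CPM with DMSO, 0.645 with everolimus, 0.862 with SGI-1027 and 0.88 with both drugs, and was higher with SGI-1027 (log2 fold change 0.996 ± 0.31 (SE), adjusted p = 0.0103) and with both drugs (1.03 ± 0.31, adjusted p = 0.00763). CD3E was at 0 in the everolimus, SGI-1027 and combination libraries, ALB was at 0 in the DMSO libraries, and PTPRC had at most 1 count in a library. DMSO replicate 1 and SGI-1027 replicate 3 stood apart from the other libraries of their groups, with a chi-square per gene of 10.2 to 13 and 16.1 to 16.4 against 3.58 and 3.04 for the other pair. Leaving out either library changed the calls stated beside the genes below.

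Against DMSO at an adjusted p under 0.05 (edgeR's quasi-likelihood test, adjusted over the 12841 tested genes), 5 of the 9 tested genes were higher and 2 lower with everolimus, where 27.2% of the tested genes were higher and 29.2% lower. With SGI-1027, 7 were higher and 1 lower, where 32% and 30.6% of the tested genes were. With the combination, 6 were higher and 3 lower, where 32.8% and 33.4% were. The median log2 fold change of the 9 genes was 0.15 for everolimus, 0.63 for SGI-1027 and 0.98 for both drugs, beside medians of 0.0013, 0.017 and 0.0074 over the tested genes. The count of higher genes with everolimus was 4 without DMSO replicate 3 or everolimus replicate 1. The count of lower genes with everolimus was 1 without DMSO replicate 2 or everolimus replicate 1 or 2. It was 3 without SGI-1027 replicate 2 or 3, and the count of lower genes with SGI-1027 was 2 without SGI-1027 replicate 3. GPNMB is counted here, and among the 9 genes in the counts below, although it passed the filter only through the groups in which it was high. The 3 comparisons share the DMSO libraries, so their values are given side by side and are not independent of each other.

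**Figure D1:**
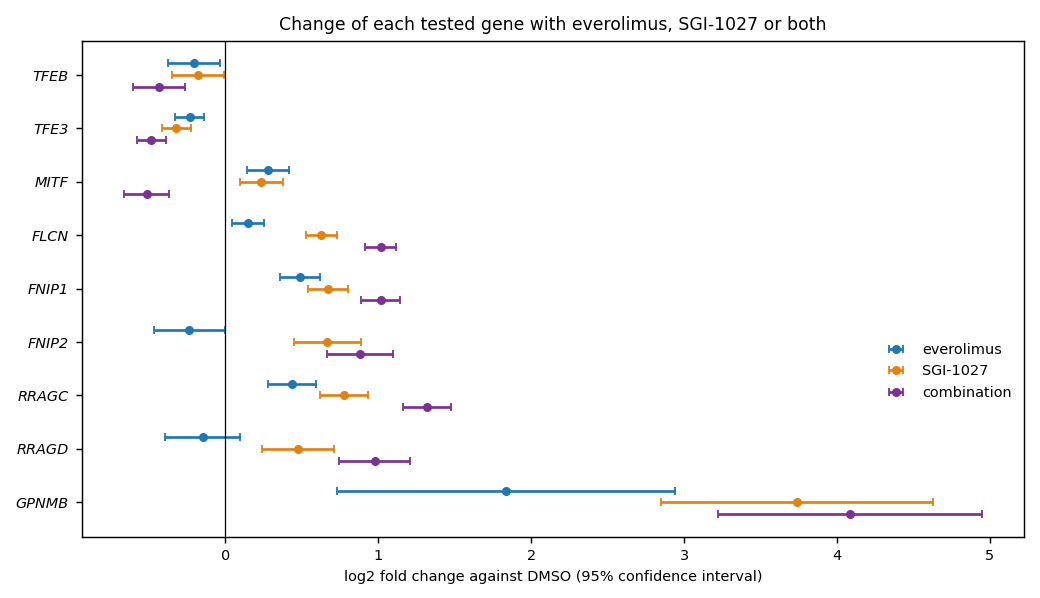
Log2 fold change against DMSO (x axis) of the 9 tested genes (y axis) with everolimus, SGI-1027 and the combination, as points with 95% confidence intervals. TFEB and TFE3 lie below 0 with each treatment, MITF lies above 0 with either drug alone and at -0.52 with the combination, and RRAGC moves from 0.44 to 0.77 to 1.32.

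Under the study's cut-off for differential expression (absolute log2 fold change of at least 1 and an unadjusted p under 0.05), which applies no correction for the number of genes, 1 gene was upregulated with everolimus, 1 with SGI-1027 and 4 with both drugs, where 3.89%, 6.25% and 7.25% of the tested genes were. GPNMB was the gene in either single-drug group, and FLCN, FNIP1, RRAGC and GPNMB were those of the combination group. No gene of the 9 was downregulated by this cut-off (edgeR, 0 with each treatment), where 0.903%, 1.07% and 2.71% of the tested genes were. The cut-off ran through the middle of the group, since FLCN and FNIP1 had a log2 fold change of 1.02 each in the combination group and RRAGD had 0.98.

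Of the factors, TFEB and TFE3 fell with the combination and MITF changed in both directions. TFE3, the most abundant of them, had 134, 121 and 128 normalized CPM in the DMSO libraries, 109, 107 and 109 with everolimus, 99.5, 101 and 106 with SGI-1027 and 94.7, 91.2 and 87.9 with both drugs. The DMSO libraries were the highest and the combination libraries the lowest, and neither overlapped with any other group. TFE3 fell by 0.23 on the log2 scale with everolimus (standard error 0.05, adjusted p = 0.000236), by 0.32 with SGI-1027 (adjusted p = 6.44e-06) and by 0.48 with the combination (standard error 0.05, adjusted p = 3.14e-08). It was lower with the combination than with everolimus by a log2 difference of -0.25 (adjusted p = 0.000246) and lower than with SGI-1027 by -0.16 (adjusted p = 0.0166). The last call did not survive the removal of SGI-1027 replicate 3 (adjusted p = 0.0522), combination replicate 2 (adjusted p = 0.0542) or combination replicate 3 (adjusted p = 0.0871).

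TFEB, the factor best known for lysosome biogenesis, had 18.5, 18.2 and 17.1 CPM with DMSO, 15.1, 14.9 and 16.7 with everolimus, 15.9, 14.4 and 17.2 with SGI-1027 and 14.4, 13.2 and 12.2 with both drugs. The combination libraries lay below the DMSO and everolimus libraries, and SGI-1027 replicate 3 lay inside the range of DMSO. TFEB fell by 0.43 on the log2 scale with the combination (standard error 0.08, adjusted p = 0.000136) and by 0.20 with everolimus (standard error 0.08, adjusted p = 0.0387). The everolimus call did not hold when DMSO replicate 1 (adjusted p = 0.1) or 2 (adjusted p = 0.0917) or everolimus replicate 1 (adjusted p = 0.119) or 2 (adjusted p = 0.128) was left out. With SGI-1027 the log2 fold change of TFEB was -0.18 (95% confidence interval -0.35 to -0.01, adjusted p = 0.0603), and without SGI-1027 replicate 3 it was -0.24 (adjusted p = 0.0181). TFEB was also lower with the combination than with everolimus (log2 difference -0.23, adjusted p = 0.0336) or with SGI-1027 (-0.25, adjusted p = 0.0369). The first of these calls was lost without everolimus replicate 1 or 3 or combination replicate 2 or 3 (adjusted p = 0.0539, 0.165, 0.0840 and 0.149). The second was lost without SGI-1027 replicate 1 or 3 or combination replicate 2 or 3 (adjusted p = 0.0771, 0.141, 0.1 and 0.163).

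MITF, the factor that also directs pigment cell development, took a different course. It had 23.3, 23.3 and 22.7 CPM with DMSO, 29.3, 27.7 and 27.0 with everolimus, 26.7, 28.5 and 26.3 with SGI-1027 and 17.9, 15.2 and 15.3 with both drugs. The libraries of either drug alone were above those of DMSO and the combination libraries were below them, with no overlap. MITF rose by a log2 fold change of 0.28 with everolimus (standard error 0.07, adjusted p = 0.00161) and 0.23 with SGI-1027 (standard error 0.07, adjusted p = 0.00515), and it fell by 0.52 on the log2 scale with the combination (standard error 0.07, adjusted p = 2.91e-06). Everolimus and SGI-1027 alone were not told apart (log2 difference of SGI-1027 against everolimus -0.04, 95% confidence interval -0.18 to 0.09, adjusted p = 0.676). The combination was lower than everolimus by a log2 difference of -0.79 (adjusted p = 3.27e-08) and lower than SGI-1027 by -0.75 (adjusted p = 2.78e-07). These calls of MITF held in each of the alternatives run, leave-one-out fits included.

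Levels of different genes can be compared only per gene length, in FPKM (fragments scaled by gene length and library size). On that scale the summed level of the 3 factors was 48.1 ± 2.53 with DMSO, 42.4 ± 0.233 with everolimus, 40.2 ± 1.09 with SGI-1027 and 34.9 ± 1.60 with both drugs (SD of 3 libraries). TFE3 made up 81.6% ± 0.876, 78.8% ± 0.267, 77.9% ± 0.281 and 81.4% ± 0.754 of that sum in the same order. MITF made up 7.61% ± 0.355 with DMSO and 7.41% ± 0.418 with the combination, against 10.5% ± 0.415 with everolimus and 10.7% ± 0.716 with SGI-1027.

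**Figure D2:**
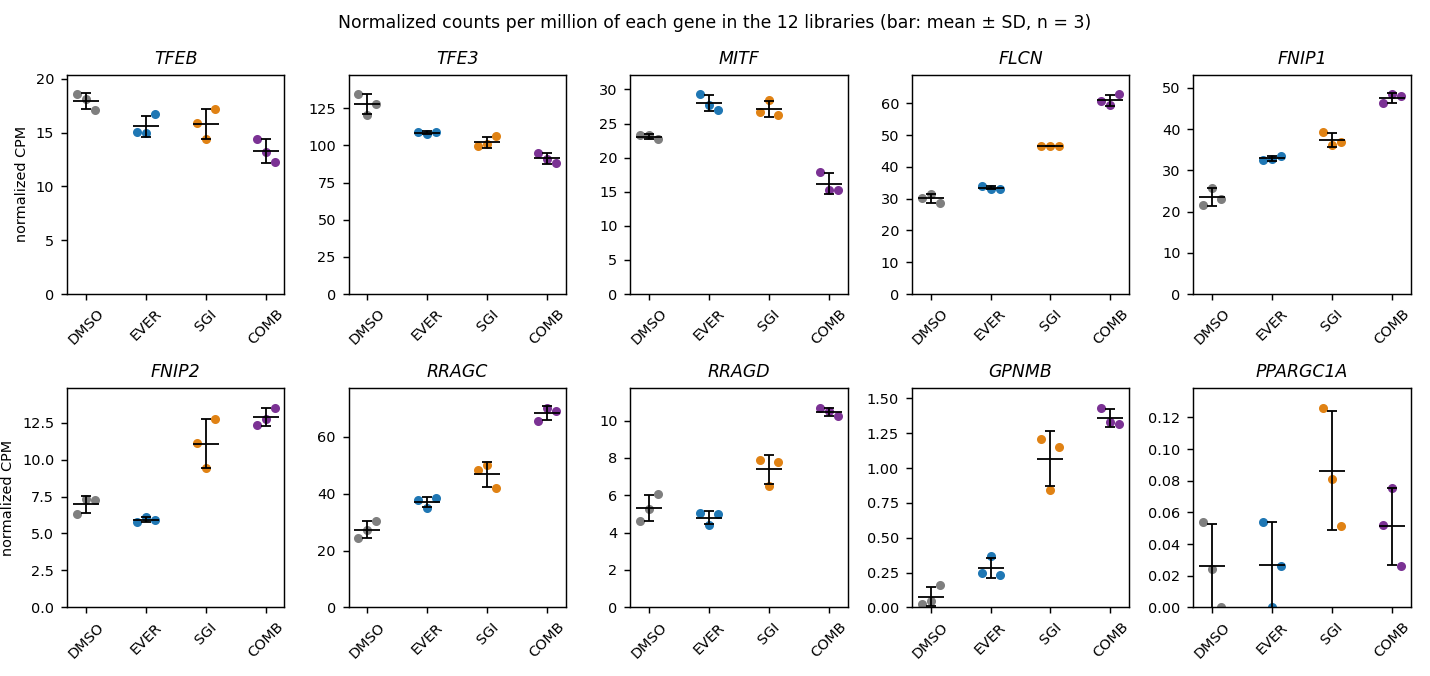
Normalized CPM (y axis, from 0) of the 10 genes in each library of DMSO, everolimus (EVER), SGI-1027 (SGI) and the combination (COMB), as points with a bar for the mean and whiskers for the SD of 3 libraries. MITF lies at 26.3 to 29.3 with either drug alone and at 15.2 to 17.9 with the combination, and RRAGC rises from 24.5 to 30.3 with DMSO to 65.6 to 70.3 with the combination.

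In the folliculin complex, FLCN and FNIP1 were higher with each treatment and FNIP2 was higher with SGI-1027 and with the combination. FLCN, which encodes folliculin, the product of the gene mutated in Birt-Hogg-Dubé syndrome, had 30.3, 31.5 and 28.6 CPM with DMSO, 33.9, 33.1 and 33.1 with everolimus, 46.4, 46.7 and 46.6 with SGI-1027 and 60.7, 59.4 and 62.8 with both drugs. The groups stood in that order without overlap. FLCN rose by a log2 fold change of 0.63 with SGI-1027 (standard error 0.05, adjusted p = 3.5e-09) and 1.02 with the combination (standard error 0.05, adjusted p = 2.79e-12). With everolimus it rose by 0.15 (standard error 0.05, adjusted p = 0.0166), a call that failed once DMSO replicate 3 (adjusted p = 0.0893) or everolimus replicate 1 (adjusted p = 0.0526) was removed. The combination was above SGI-1027 by a log2 difference of 0.39 (adjusted p = 8.59e-06), and SGI-1027 was above everolimus by 0.48 (adjusted p = 8.43e-07).

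FNIP1, a partner needed for the GTPase-activating function of folliculin, had 21.6, 25.8 and 23.0 CPM with DMSO, 32.4, 32.8 and 33.6 with everolimus, 39.4, 36.1 and 36.9 with SGI-1027 and 46.3, 48.4 and 47.9 with both drugs. No group overlapped with another. FNIP1 rose by a log2 fold change of 0.49 with everolimus (standard error 0.06, adjusted p = 2.82e-06), 0.67 with SGI-1027 (adjusted p = 3.2e-08) and 1.02 with the combination (standard error 0.06, adjusted p = 7.43e-11). The combination was above SGI-1027 by 0.34 (adjusted p = 0.000372). SGI-1027 was above everolimus by 0.19 (adjusted p = 0.0331), a call that was lost without everolimus replicate 1, 2 or 3 (adjusted p = 0.0959, 0.0839 and 0.0574) or SGI-1027 replicate 1 (adjusted p = 0.129).

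The FNIP1 promoter is shown because it held the same E-box at 2 places. Promoter sequences were those of RefSeq on GRCh38.p14, which matched 9 of the 10 genes with 15 start sites, and the 250 bases before each start are used here, 5′ to 3′ on the strand of the gene. The motifs searched on both strands were the E-box CACGTG, its extension TCACGTG (which contains CACGTG) and the MITF-type M-box TCATGTG. In windows that also took in the 50 bases after the start, TCACGTG was found in 3.71% of 35116 promoters, CACGTG in 7.26% and TCATGTG in 2.92%. The FNIP1 start lies on the minus strand of chromosome 5, and the bases printed are chr5:131797018-131797267. Capitals mark CACGTGA, which is TCACGTG read on the other strand, with first bases 175 and 94 bases before the start.
FNIP1: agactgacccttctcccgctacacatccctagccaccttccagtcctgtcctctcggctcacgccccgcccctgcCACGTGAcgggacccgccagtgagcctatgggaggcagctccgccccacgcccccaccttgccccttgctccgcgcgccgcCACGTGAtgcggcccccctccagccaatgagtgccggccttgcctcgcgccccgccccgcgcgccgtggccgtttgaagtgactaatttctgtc

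FNIP2, the second partner, had 6.31, 7.36 and 7.28 CPM with DMSO, 5.78, 6.11 and 5.88 with everolimus, 11.1, 9.40 and 12.7 with SGI-1027 and 12.3, 12.8 and 13.5 with both drugs. The everolimus libraries were the lowest, and the SGI-1027 and combination libraries overlapped with each other and lay above DMSO. FNIP2 rose by a log2 fold change of 0.67 with SGI-1027 (standard error 0.10, adjusted p = 2.25e-05) and 0.88 with the combination (standard error 0.10, adjusted p = 5.8e-07). With everolimus its log2 fold change was -0.24 (95% confidence interval -0.47 to -0.01, adjusted p = 0.0749), and it passed the threshold without DMSO replicate 1 (-0.30, adjusted p = 0.0356) and without SGI-1027 replicate 2 or 3 (adjusted p = 0.0456 and 0.0453). SGI-1027 and everolimus differed by a log2 value of 0.90 (adjusted p = 5.36e-06). The combination and SGI-1027 differed by 0.21 (95% confidence interval 0.01 to 0.42, adjusted p = 0.147), or by 0.33 without SGI-1027 replicate 3 (adjusted p = 0.0236). Per length, FNIP1 was the main partner in each group, with 86.2% ± 0.647 of the summed FPKM of FNIP1 and FNIP2 with DMSO, 91.2% ± 0.256 with everolimus, 86.3% ± 1.74 with SGI-1027 and 87.3% ± 0.404 with both drugs. One of the 2 FNIP2 promoter windows held TCATGTG, 142 bases before its start, and the window of FLCN held none of the 3 motifs.

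RRAGC was the gene of the Rag pair that rose with each treatment. It encodes RagC, on which folliculin acts, and had 24.5, 27.3 and 30.3 CPM with DMSO, 37.7, 35.0 and 38.4 with everolimus, 48.4, 50.1 and 41.9 with SGI-1027 and 65.6, 70.3 and 69.1 with both drugs. The groups rose in that order with no overlap. The log2 fold change was 0.44 with everolimus (standard error 0.08, adjusted p = 8.61e-05), 0.77 with SGI-1027 (standard error 0.07, adjusted p = 6.34e-08) and 1.32 with the combination (standard error 0.07, adjusted p = 2.79e-11). The combination was above everolimus by 0.88 (adjusted p = 1.76e-08) and above SGI-1027 by 0.55 (adjusted p = 2.18e-05), and SGI-1027 was above everolimus by 0.34 (adjusted p = 0.00258).

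RRAGD, which encodes the close relative RagD, had 4.64, 5.27 and 6.05 CPM with DMSO, 5.03, 4.397 and 4.99 with everolimus, 7.89, 6.50 and 7.80 with SGI-1027 and 10.7, 10.5 and 10.3 with both drugs. The DMSO and everolimus libraries overlapped, and both other groups lay above them, the combination highest. RRAGD rose by a log2 fold change of 0.48 with SGI-1027 (standard error 0.11, adjusted p = 0.00127) and 0.98 with the combination (standard error 0.11, adjusted p = 3.39e-07), while with everolimus its value was -0.15 (95% confidence interval -0.40 to 0.10, adjusted p = 0.293). SGI-1027 was above everolimus by a log2 difference of 0.62 (adjusted p = 0.00058), and the combination was above SGI-1027 by 0.50 (adjusted p = 0.00239).

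Both Rag genes were set beside their partners RRAGA and RRAGB, which encode the other member of each GTPase dimer. The summed FPKM of RRAGC and RRAGD was 11.01 ± 1.102 with DMSO, 14.6 ± 0.648 with everolimus, 18.6 ± 1.62 with SGI-1027 and 27.4 ± 0.933 with both drugs (SD of 3 libraries). RRAGC made up 12.2% ± 0.888, 14.3% ± 0.568, 16.8% ± 0.600 and 21.7% ± 0.335 of the summed FPKM of the 4 Rag genes in that order. RRAGA stayed the most abundant, with 82.9% ± 0.473 of the sum with DMSO and 73.4% ± 0.299 with the combination. RRAGD made up 1.02% ± 0.0999 with DMSO and 1.43% ± 0.0540 with the combination.

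The RRAGC promoter, on the minus strand of chromosome 1 at chr1:38859773-38860022 of GRCh38.p14, is shown because it held TCACGTG once, read on the other strand and in capitals, 112 bases before the start.
RRAGC: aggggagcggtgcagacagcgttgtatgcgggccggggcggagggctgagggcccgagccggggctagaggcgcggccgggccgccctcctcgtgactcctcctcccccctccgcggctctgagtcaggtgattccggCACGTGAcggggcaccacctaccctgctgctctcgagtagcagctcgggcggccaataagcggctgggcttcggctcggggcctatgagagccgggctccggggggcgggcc

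**Figure D3:**
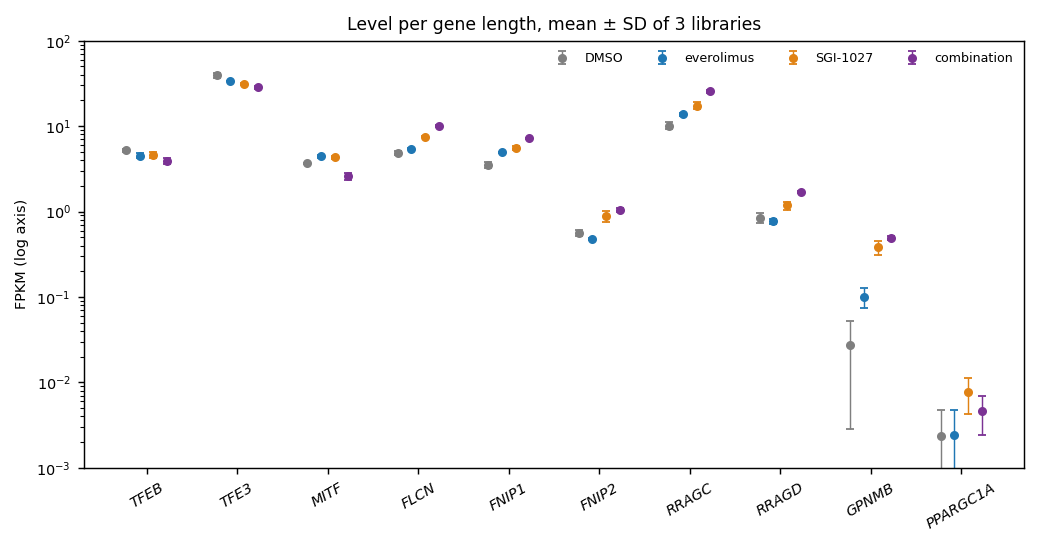
Level in FPKM (y axis, log scale) of the 10 genes in the 4 groups, as the mean with whiskers for the SD of 3 libraries; whiskers that reach the lower edge run below the axis. TFE3 lies highest with DMSO (39.3), RRAGC comes next (10.2) and PPARGC1A lies lowest in each group.

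GPNMB and PPARGC1A were the targets outside the feedback loop. GPNMB, which encodes a membrane glycoprotein of lysosomes and melanosomes, had 1, 2 and 6 counts in the DMSO libraries, 9, 15 and 9 with everolimus, 48, 31 and 45 with SGI-1027 and 55, 53 and 50 with both drugs. These are few counts, and no DMSO library reached the lowest everolimus library. From the summed counts the level was 3.68 times that of DMSO with everolimus (95% exact counting interval 1.72 to 8.74), 13.9 times with SGI-1027 (7.09 to 31.1) and 17.6 times with the combination (9.04 to 39.2), intervals that cover counting error only. The fitted log2 fold changes, which depend on the prior count, were 1.83 (standard error 0.52, adjusted p = 0.00627), 3.74 (standard error 0.42, adjusted p = 4.8e-07) and 4.08 (standard error 0.41, adjusted p = 7.84e-08). Because GPNMB passed the filter only through the groups in which it was high, its p-values are descriptive only. The combination and SGI-1027 were not told apart (log2 difference 0.34, 95% confidence interval -0.22 to 0.91, adjusted p = 0.419). Per length its level with the combination was 0.491 FPKM on average, against 25.7 for RRAGC.

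PPARGC1A, which encodes the mitochondrial coactivator PGC-1alpha, had 2, 1 and 0 counts in the DMSO libraries, 2, 0 and 1 with everolimus, 5, 3 and 2 with SGI-1027 and 2, 3 and 1 with both drugs. The groups overlapped, and with 11 of the 12 libraries at or under 3 counts no fold is given and a difference was not detectable at this depth.

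The promoters of both genes are shown side by side because they held motifs while their levels were the lowest of the group. For GPNMB, on the plus strand of chromosome 7 at chr7:23246525-23246774 of GRCh38.p14, capitals mark CACATGA, the M-box TCATGTG read on the other strand, 123 and 62 bases before the start. For PPARGC1A, in the window of the upstream of 2 listed starts on the minus strand of chromosome 4 at chr4:24472906-24473155, capitals mark CACGTGA, 123 bases before the start. The window of the other PPARGC1A start held none of the motifs searched.
GPNMB: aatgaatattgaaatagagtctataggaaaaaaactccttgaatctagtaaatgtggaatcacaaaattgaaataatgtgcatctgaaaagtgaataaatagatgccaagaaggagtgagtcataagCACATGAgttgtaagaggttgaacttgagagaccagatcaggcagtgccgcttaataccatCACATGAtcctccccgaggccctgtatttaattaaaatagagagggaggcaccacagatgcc
PPARGC1A: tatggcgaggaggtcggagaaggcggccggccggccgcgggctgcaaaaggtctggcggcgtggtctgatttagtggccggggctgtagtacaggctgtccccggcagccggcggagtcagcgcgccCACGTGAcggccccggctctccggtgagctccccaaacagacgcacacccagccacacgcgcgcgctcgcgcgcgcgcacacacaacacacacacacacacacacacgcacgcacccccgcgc

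No window of TFEB, TFE3 or MITF held any of the 3 motifs, which says only that these letters were not in the windows searched.

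The treatments were also compared with each other. Between the combination and everolimus, 6 of the 9 tested genes were higher (FLCN, FNIP1, FNIP2, RRAGC, RRAGD and GPNMB) and 3 lower (TFEB, TFE3 and MITF), where 20.1% and 19.2% of the tested genes were. The count of lower genes was 2 without everolimus replicate 1 or 3 or combination replicate 2 or 3, where TFEB lost its call. Between the combination and SGI-1027, 4 were higher (FLCN, FNIP1, RRAGC and RRAGD) and 3 lower (the same factors), where 9.4% and 10.2% were. The count of lower genes was 1 without SGI-1027 replicate 3 or combination replicate 2 or 3. The count of higher genes was 5 without SGI-1027 replicate 3, where FNIP2 was also called. Between SGI-1027 and everolimus, 6 were higher (FLCN, FNIP1, FNIP2, RRAGC, RRAGD and GPNMB), where 13% were. That count was 5 without everolimus replicate 1, 2 or 3 or SGI-1027 replicate 1, where FNIP1 lost its call. None of the 9 was lower in that comparison by edgeR (0 at an unadjusted p under 0.05 and 0 by DESeq2), where 9.51% of the tested genes were.

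Whether the combination differed from the sum of the changes with each drug was tested as an interaction on the log2 scale. By that test 3 genes were higher than the sum (FLCN, FNIP2 and RRAGD) and 2 lower (MITF and GPNMB), where 23.6% and 22.1% of the tested genes were. For MITF the single-drug changes summed to 0.51 and the combination gave -0.52, an interaction of -1.03 (standard error 0.10, adjusted p = 1.3e-07). For RRAGD the sum was 0.33 against 0.98 in the combination group, an interaction of 0.65 (standard error 0.16, adjusted p = 0.00267). The interaction was 0.45 for FNIP2 (standard error 0.15, adjusted p = 0.0187) and 0.24 for FLCN (standard error 0.07, adjusted p = 0.00745).

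For GPNMB the interaction was -1.49 (standard error 0.59, adjusted p = 0.0487). It missed the threshold without any single one of 10 libraries, namely DMSO replicates 1 and 2 (adjusted p = 0.145 and 0.139), everolimus replicates 1, 2 and 3 (0.0559, 0.136 and 0.0523), SGI-1027 replicates 1 and 3 (0.0830 and 0.0729) and combination replicates 1, 2 and 3 (0.0600, 0.0723 and 0.0713). The interaction of RRAGC was 0.11 (95% confidence interval -0.11 to 0.33, adjusted p = 0.409), that of FNIP1 was -0.14 (-0.32 to 0.04, adjusted p = 0.191), that of TFE3 was 0.07 (-0.06 to 0.21, adjusted p = 0.375) and that of TFEB was -0.05 (-0.29 to 0.19, adjusted p = 0.749). FNIP1 passed the threshold without DMSO replicate 2 (-0.22, adjusted p = 0.0398).

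**Figure D4:**
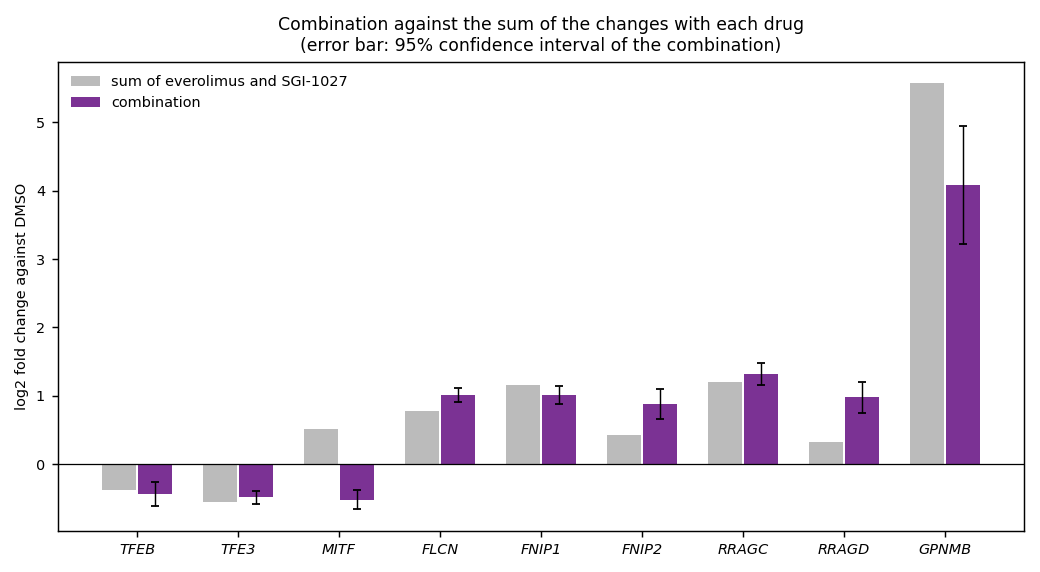
Log2 fold change against DMSO (y axis) of the 9 tested genes as the sum of the everolimus and SGI-1027 changes (grey bars) and as measured with the combination (purple bars, whiskers for its 95% confidence interval). MITF points up to 0.51 for the sum and down to -0.52 for the combination, and RRAGD has 0.33 for the sum and 0.98 for the combination.

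Among genes outside the 10, those whose pattern over the 12 libraries was most like FLCN were SLC2A3, LY6E and ITPR3, with root-mean-square distances of 0.0624, 0.0811 and 0.0835 in log2 CPM centred on each gene's mean, where the median over 11464 genes was 0.436. Nearest to RRAGD were BST2, CHST2 and CNIH3 (0.117, 0.123 and 0.128, median 0.486). Nearest to GPNMB were CD177, ISG20 and SIGLEC15 (0.612, 0.621 and 0.677, median 1.75).

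Of the other MiT/TFE targets, most genes of the CLEAR network of lysosome and autophagy genes were higher. Of 40 tested genes 26 were higher and 4 lower with everolimus, 31 and 4 with SGI-1027 and 35 and 3 with both drugs, where 27.2% and 29.2%, 32% and 30.6%, and 32.8% and 33.4% of all tested genes were higher and lower. The list medians were 0.24, 0.49 and 0.70 on the log2 scale. SQSTM1, an autophagy receptor, had log2 fold changes of 0.73, 1.11 and 1.64 with everolimus, SGI-1027 and the combination (standard error 0.03 each, adjusted p = 9.45e-12, 1.56e-14 and 1.03e-16). CTSD, the protease cathepsin D, had 0.74, 1.27 and 1.54, and NEU1, the lysosomal sialidase, had 0.20, 0.99 and 1.35. The genes that fell with the combination were GLA, ATG16L1 and ATP6V1A, named after their values were seen, with log2 fold changes of -0.24, -0.35 and -0.27. By the interaction test 10 of the 40 were higher and 13 lower than the sum of the changes with each drug, beside 23.6% and 22.1% of all tested genes.

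Of the Rag and Ragulator platform that holds mTORC1 at the lysosome, 4 of 8 tested genes were higher with everolimus (RRAGA, LAMTOR2, LAMTOR3 and SLC38A9), beside 27.2% of all tested genes. With SGI-1027, 5 were higher, the same genes and RRAGB, and LAMTOR5 was lower (-0.22, adjusted p = 0.022), beside 32% higher and 30.6% lower of all tested genes. The combination had the same 5 higher, beside 32.8%. The Ragulator subunit LAMTOR2 had log2 fold changes of 0.37, 0.36 and 0.39 with everolimus, SGI-1027 and the combination, LAMTOR3 had 0.29, 0.34 and 0.49, and RRAGA had 0.18, 0.22 and 0.31. The list medians were 0.19, 0.26 and 0.29, against 0.44, 0.77 and 1.32 for RRAGC.

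Of the GATOR complexes and amino acid sensors upstream of the Rag GTPases, 16 genes were tested, of which 2 were higher and 3 lower with everolimus, 3 and 5 with SGI-1027 and 3 and 6 with both drugs. Of all tested genes 27.2% were higher and 29.2% lower with everolimus, 32% and 30.6% with SGI-1027 and 32.8% and 33.4% with both drugs. SEH1L of GATOR2 fell by 0.55, 0.52 and 0.55 on the log2 scale, and SEC13, also of GATOR2, had log2 fold changes of -0.03 (adjusted p = 0.553), -0.13 and -0.32. C9orf72 and SMCR8, DENN domain proteins like folliculin, form a complex with the WD-repeat protein WDR41. Of these 3 and NPRL2 and NPRL3 of GATOR1, 1 of 5 was higher with everolimus (C9orf72), 1 with SGI-1027 (SMCR8) and 3 with the combination (SMCR8, C9orf72 and NPRL2), and NPRL3 was lower there, beside the same percentages. NPRL2 and NPRL3 are on both of these lists.

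Of 22 tested genes for kinases, phosphatases, 14-3-3 proteins and others that act on MiT/TFE factors (MCOLN1 is also on the CLEAR list), 2 were higher and 8 lower with everolimus, 4 and 12 with SGI-1027 and 5 and 11 with both drugs, with medians of -0.10, -0.16 and -0.10. Of all tested genes 27.2% and 29.2%, 32% and 30.6%, and 32.8% and 33.4% were higher and lower in these 3 comparisons. YWHAE and YWHAH, 14-3-3 proteins that bind the phosphorylated factors in the cytoplasm, fell by 0.26, 0.39 and 0.50 and by 0.31, 0.33 and 0.39 on the log2 scale with everolimus, SGI-1027 and the combination. AKT1, a kinase, fell by 0.20, 0.30 and 0.29.

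Most pigment cell genes driven by MITF were at or near 0. Of 12 such genes 10 were in the table and 3 were tested, and their summed level was 33.9985 to 36.4 CPM with DMSO, 25.4 to 28.2 with everolimus, 26.7 to 29.9 with SGI-1027 and 23.1 to 24.3 with both drugs. RAB27A, a vesicle transport GTPase that is not particular to pigment cells, made up most of this sum and had log2 fold changes of -0.47, -0.44 and -0.72 in the 3 treatments. TYRP1 and DCT had at most 2 counts in a library. MC1R had log2 fold changes of 0.66 (adjusted p = 0.039), 0.83 and 0.72, and PMEL had 0.58 (adjusted p = 0.135), 0.996 and 1.03, from 13 to 43 counts in a library.

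Beside PPARGC1A, 19 genes of the PGC-1 family and its partners and targets were tested, of which 6 were higher and 7 lower with everolimus, 5 and 5 with SGI-1027 and 5 and 5 with both drugs, against 27.2% and 29.2%, 32% and 30.6%, and 32.8% and 33.4% of all tested genes. CPT1A and CPT1B, which take fatty acids to the mitochondria, had log2 fold changes of 1.43 and 0.85 with everolimus, 1.50 and 1.25 with SGI-1027 and 1.92 and 1.38 with both drugs. CYCS, cytochrome c, fell by 0.62, 0.83 and 0.71. The family members PPARGC1B and PPRC1 were named after their values were seen. PPARGC1B had log2 fold changes of -1.15, -0.14 (adjusted p = 0.313) and 0.40, and PPRC1 had -0.78, -0.18 and -0.22.

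**Figure D5:**
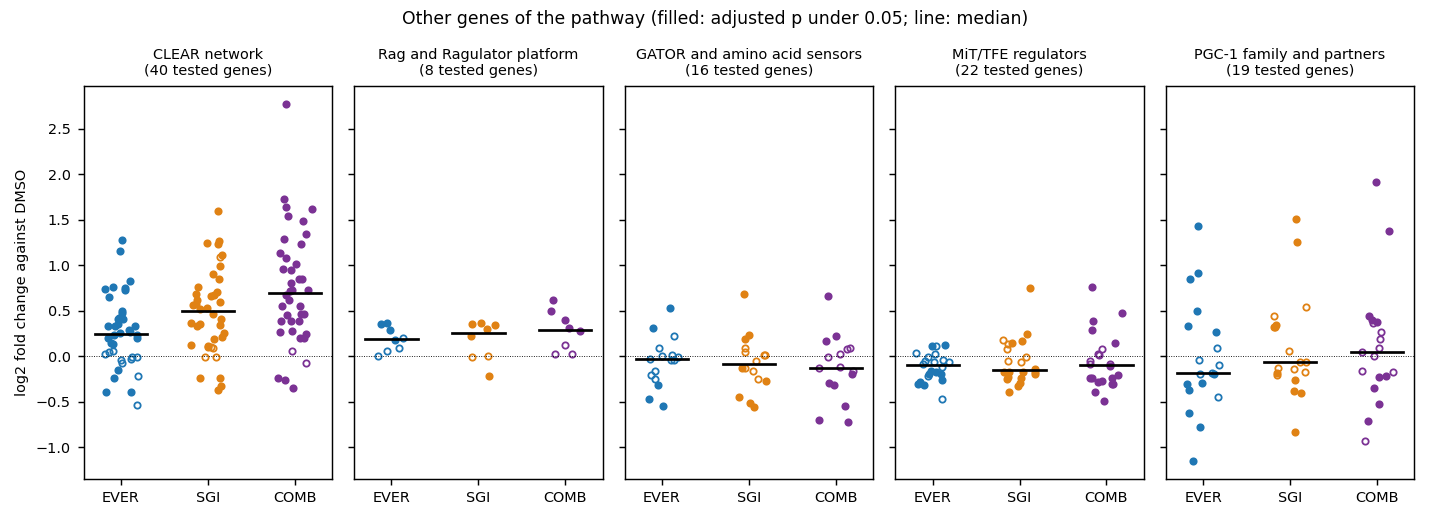
Log2 fold change against DMSO (y axis) of the tested genes of 5 lists with everolimus (EVER), SGI-1027 (SGI) and the combination (COMB), as filled points where the adjusted p was under 0.05 and open points elsewhere, with a line at the list median. The CLEAR network medians are 0.24, 0.49 and 0.70, and those of the MiT/TFE regulators are -0.10, -0.16 and -0.10.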

How the data were processed

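RNA sequencing was analysed from 12 libraries of 786-O cells, 3 in each of 4 groups named by the sample labels. The authors deposited raw read counts per gene symbol, not normalized, and FPKM values. The deposited FPKM served for levels between genes and for alternative tests on the log2 scale, since the deposited counts carry the main test. The labels' processing notes name only the mouse builds GRCm38 and mm10 although cells and symbols are human, and the aligner, counting program, strand setting and annotation are not given in the sources used here. The labels name a SMARTer library kit and RNeasy extraction, and the study's methods name a stranded TruSeq kit and TRIzol.

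From the counts, edgeR 4.0.16 (R 4.3.3) was run on all 12 libraries with TMM scaling (factors 0.9895 to 1.012) and its expression filter, which kept 12841 of 17085 genes (351 had no count). Contrasts of group means and the interaction were tested by quasi-likelihood, with Benjamini-Hochberg adjustment over the tested genes at 0.05. Log2 fold changes carry a prior count of 0.125, and confidence intervals are at 95%. The alternatives were DESeq2 1.42.0, upper-quartile scaling, no filter, at least 10 counts in every library, a replicate block, the compared groups alone, limma-trend (limma 3.58.1) on log2(FPKM + 1) and log2(FPKM + 0.1), and leaving out each library. The statistics were tested on simulated data first. Replicate numbers did not pair the libraries: deviations from group means of same-numbered libraries correlated at -0.149 to 0.0428 over 18 pairs.

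The 10 genes and the lists were chosen with earlier results of these data known. Named from each list are the 3 genes of lowest p for the combination against DMSO (1 gene of the GATOR list is not reported here), and likeness was taken over genes averaging 50 counts or more. Of 44 CLEAR symbols 42 were in the table, the others being second names of listed genes. Promoter sequences are from RefSeq (GRCh38.p14), independent of the build of the files. No RRAGD promoter is shown.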

Additional observations from a re-analysis of the deposited data

Results flagged for a closer look

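The 5 results given here had an interaction of the 2 drugs past an adjusted p of 0.05 (edgeR's quasi-likelihood test, all 12 libraries). An interaction compares the change with 1 drug between the presence and the absence of the other. MITF had -1.03 on the log2 scale (standard error 0.10, adjusted p = 1.3e-07), with the 3 combination libraries below and the 6 single-drug libraries above the 3 DMSO libraries. FLCN had 0.24 (adjusted p = 0.00745), FNIP2 had 0.45 (adjusted p = 0.0187) and RRAGD had 0.65 (adjusted p = 0.00267). With upper-quartile scaling the FLCN call was lost (adjusted p = 0.0552). GPNMB had -1.49 (adjusted p = 0.0487), from 1 to 6 counts in a DMSO library, and its call did not hold in 15 of 18 alternative fits. At this threshold 3 of the 9 genes were above and 2 below the sum of the changes with each drug, beside 23.6% and 22.1% of all tested genes. The everolimus dose of the single-drug group, given as 5 µM by the labels and 10 µM by the protocol, enters each of these values, and its part in them was not tested.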

How the results depend on the processing

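Of the member log2 fold changes under the alternatives, 1187 kept their side of the threshold, 48 lost their call, 8 gained one and 1 called value reversed. Of the 1187, 960 were of values called as reported, and 0 of these changed sign. Another 6, of TFEB or TFE3 values that were not called, changed sign near 0. The called value that reversed was the GPNMB interaction, 0.0128 with limma-trend on log2(FPKM + 1) (adjusted p = 0.871) and -0.36 with log2(FPKM + 0.1), a scale that compresses genes near 0. The interaction had 1 lower gene, MITF, in place of 2 with DESeq2, no filter, either limma-trend fit or the replicate block. It also had 1 with at least 10 counts in every library, a filter that left GPNMB untested. Genes lower with everolimus were 1 with upper-quartile factors and with either limma-trend fit, and those lower with SGI-1027 were 2 with DESeq2 and with no filter. The limma-trend fits on log2(FPKM + 1) and log2(FPKM + 0.1) also lost TFEB in the combination against everolimus (adjusted p = 0.0545 and 0.0502). Both lost TFEB in the combination against SGI-1027 (0.0663 and 0.0625) and FNIP1 in SGI-1027 against everolimus (0.0603 and 0.0649). With the compared groups alone, edgeR lost TFEB in the combination against SGI-1027 (adjusted p = 0.0747). Under the replicate block TFEB in the combination against SGI-1027 (-0.25, adjusted p = 0.0528) and the GPNMB interaction (-1.49, adjusted p = 0.0665) lost their calls. No other call of the 63 changed there. The replicate numbers mark no stated pairing, and 2 libraries correlated best with their own number. Upper-quartile scaling moved the median of all genes by at most 0.0739 on the log2 scale and took the calls of TFEB with everolimus (-0.13, adjusted p = 0.177), FNIP1 in SGI-1027 against everolimus (0.17, adjusted p = 0.0566) and the FLCN interaction (0.17, adjusted p = 0.0552). Leaving out 1 library gave 1 to 3 genes lower with everolimus, 1 to 2 lower with SGI-1027, 1 to 3 lower in the combination against SGI-1027 and 1 to 2 lower by the interaction. It also gave 4 to 5 higher with everolimus and 2 to 3 lower in the combination against everolimus. Against SGI-1027 the combination had 4 to 5 higher, and SGI-1027 against everolimus had 5 to 6 higher. By the study's cut-off the counts higher and lower were 1 and 0 with everolimus, 1 and 0 with SGI-1027, 4 and 0 with the combination, 3 and 0 for the combination against everolimus, 0 and 0 against SGI-1027, 1 and 0 for SGI-1027 against everolimus and 0 and 2 by the interaction (MITF and GPNMB). For the 40 tested genes of the CLEAR network they were 2 and 0, 5 and 0, and 12 and 0 with everolimus, SGI-1027 and the combination. Of all tested genes 3.89%, 6.25% and 7.25% were higher by this cut-off and 0.903%, 1.07% and 2.71% lower, in that order. For the comparisons between treatments and the interaction this share was not computed, so those counts have no value to stand beside. The cause of these differences was not tested. Depth limited GPNMB and PPARGC1A alone among the 10 genes, since the other 8 had at least 173 counts in each library.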
